A study of Mus musculus with 38 samples.

Results

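A set of 10 genes of the meiotic chromosome axis and the synaptonemal complex was followed in the neonatal mouse testis: Sycp2, Sycp3, Sycp1, Syce1, Syce2, Syce3, Tex12, Smc1b, Stag3 and Rec8. They were taken by gene symbol from the annotation of the array, a choice made with earlier results of these data known, and all 10 had a probe set that carried only their symbol, 1 probe set each, among 18019 genes with a probe set. RNA of 1 male's testes was put on each of 38 Affymetrix arrays, which read transcripts near their 3′ end. The males formed 11 groups, 18 males at 5 days postpartum (dpp) and 20 males at 7 dpp. B6 is the C57BL/6J laboratory strain, and MSM is an inbred strain of Japanese wild mice. B6-ChrXMSM carried the whole X chromosome of MSM on the B6 background. B6-ChrXTMSM carried the distal part of that X only, and XS39-tel, measured at 5 dpp only, was another strain with a part of it. The F1 males came from B6-ChrXTMSM females and B6-Chr1MSM males, so they had the distal MSM X together with 1 MSM copy of chromosome 1. Each group held 3 males, except the F1 at 7 dpp with 8. None of the 10 genes lies on chromosome 1 or on the X chromosome, so that by the crosses only the MSM males carried MSM alleles of them.

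In the first meiotic prophase, each pair of sister chromatids is organised along a protein axis, and the axes of homologous chromosomes are then joined along their length by the synaptonemal complex. SYCP2 and SYCP3 build the axial (later lateral) elements, SYCP1 forms the transverse filaments that bridge them, and SYCE1, SYCE2, SYCE3 and TEX12 form the central element. SMC1B, STAG3 and REC8 are the germ cell counterparts of the mitotic cohesin subunits SMC1A, STAG1 or STAG2, and RAD21. In the mouse testis, the transcripts of these genes begin to accumulate in differentiating spermatogonia, before the first spermatocytes appear, and loss of most of the proteins arrests male germ cells in prophase.

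Because the genes were described as one group, the sequence just before their start sites was read from RefSeq (GRCm38.p6). All 10 genes had such a window of 250 bases, 12 windows in total, since Syce2 and Syce3 had 2 start sites. These windows were searched on both strands for 3 short motifs. CACGTG is an E-box that MAX with its partners can bind. GCGGGAA, read on the other strand as TTCCCGC, is a core of E2F sites. CNCCTCAG (CTGAGGNG) is the motif of STRA8 with MEIOSIN, which activate meiotic genes. E2F6 and the MAX partner MGA belong to a Polycomb complex known to silence germ line genes in other tissues. The E-box stood in 5 of the 12 windows, 1 each of Sycp1, Sycp3, Syce2, Tex12 and Stag3, against 6.02% of all 32851 windows. The E2F core stood in 4 of the 12, 1 each of Sycp3, Syce2, Tex12 and Smc1b, against 3.82% of all windows. The motif of STRA8 with MEIOSIN stood in 1 of the 12, a window of Syce2, against 6.42%. A match is a description of letters, and where there was none, this says only that these letters are not in the window. The windows of 4 genes that hold these motifs are shown 5′ to 3′ on the strand of the gene, ending at the base before the start site, with the E-box and the E2F core in capitals. They show the axis, filament, central element and cohesin genes whose levels are compared below. Sycp3 is at chr10:88459337-88459586 (plus strand), Tex12 at chr9:50561269-50561518 (minus), Sycp1 at chr3:102936101-102936350 (minus) and Smc1b at chr15:85131958-85132207 (minus).
Sycp3: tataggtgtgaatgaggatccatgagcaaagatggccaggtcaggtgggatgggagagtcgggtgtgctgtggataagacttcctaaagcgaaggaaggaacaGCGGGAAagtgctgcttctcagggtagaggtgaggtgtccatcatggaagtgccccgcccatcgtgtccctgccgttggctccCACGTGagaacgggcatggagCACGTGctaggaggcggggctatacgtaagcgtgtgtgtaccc
Tex12: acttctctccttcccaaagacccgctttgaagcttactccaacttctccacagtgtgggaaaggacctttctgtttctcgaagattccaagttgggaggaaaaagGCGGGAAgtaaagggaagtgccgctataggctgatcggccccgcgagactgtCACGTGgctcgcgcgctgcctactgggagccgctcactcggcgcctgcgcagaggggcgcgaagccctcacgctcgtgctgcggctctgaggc
Sycp1: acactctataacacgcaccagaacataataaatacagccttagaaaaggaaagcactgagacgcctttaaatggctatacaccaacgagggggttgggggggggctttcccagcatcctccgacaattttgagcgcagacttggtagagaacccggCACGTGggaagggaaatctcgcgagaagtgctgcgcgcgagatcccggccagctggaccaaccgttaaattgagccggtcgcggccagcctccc
Smc1b: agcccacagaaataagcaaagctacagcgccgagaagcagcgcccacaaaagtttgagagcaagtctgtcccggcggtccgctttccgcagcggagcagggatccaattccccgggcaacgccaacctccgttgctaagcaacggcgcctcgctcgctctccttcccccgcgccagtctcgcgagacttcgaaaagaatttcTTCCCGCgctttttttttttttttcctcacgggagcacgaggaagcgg
In Sycp3 the E-boxes began 64 and 43 bases upstream of the start site and the E2F core 147 bases upstream. In Tex12 the corresponding distances were 93 bases for the E-box and 145 for the E2F core. The E-box of Sycp1 began 94 bases upstream, and the E2F core of Smc1b, on the other strand, 48 bases upstream. The windows held 12 (Sycp3), 20 (Tex12), 17 (Sycp1) and 25 (Smc1b) CpG dinucleotides, but both motifs contain a CpG themselves, and these 4 windows were shown because they hold them. Over all 12 member windows the number ran from 5 (a window of Syce3) to 26 (Stag3), against a median of 6 over all windows.

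Levels are given as log2 signal of the authors' normalised tables, and differences as log2 fold changes from limma with their standard error (SE). A gene entered a comparison if its mean was above a signal of 10 (3.322 on the log2 scale) in at least 1 of its groups. A change was called at an adjusted p under 0.05 (Benjamini-Hochberg over all probe sets in the comparison) and a size of at least 1.5-fold. Rec8 stayed below the filter in all 11 groups, with group means that spanned 0.96, so it entered no comparison and its values are given at the end of the cohesin genes. In B6-ChrXMSM at 5 dpp, the means of Sycp2 (2.30), Syce1 (2.92), Syce3 (2.27), Tex12 (2.91) and Smc1b (3.28) were also under the filter. These genes entered the comparisons of that group only through the group set against it, and so did Sycp2 in XS39-tel and Syce3 in every group but B6 at both ages and MSM and the F1 at 7 dpp. The sizes of such differences rest on a level under the filter and are less certain than the others. Of the other 9, Tex12 spanned the widest range of group means, 4.05, from 2.91 in B6-ChrXMSM at 5 dpp to 6.96 in MSM at 7 dpp, and Syce2 the narrowest, 1.08. The lowest group was B6-ChrXMSM at 5 dpp for all 9. Neighbours in the order of the 11 group means mostly overlapped between males: of the 10 neighbouring pairs, 3 did not overlap for Tex12 and Smc1b, 2 for Sycp1 and Sycp3, 1 for Stag3, Syce1, Syce2 and Syce3, and 0 for Sycp2. Array medians of all probe sets ran from 2.63 to 2.71. The normalisation itself brings these medians close, so they are no test of whether the arrays are comparable. Fewer germ cells of a type and less RNA per cell cannot be told apart in RNA of whole testes.

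**Figure D1:**
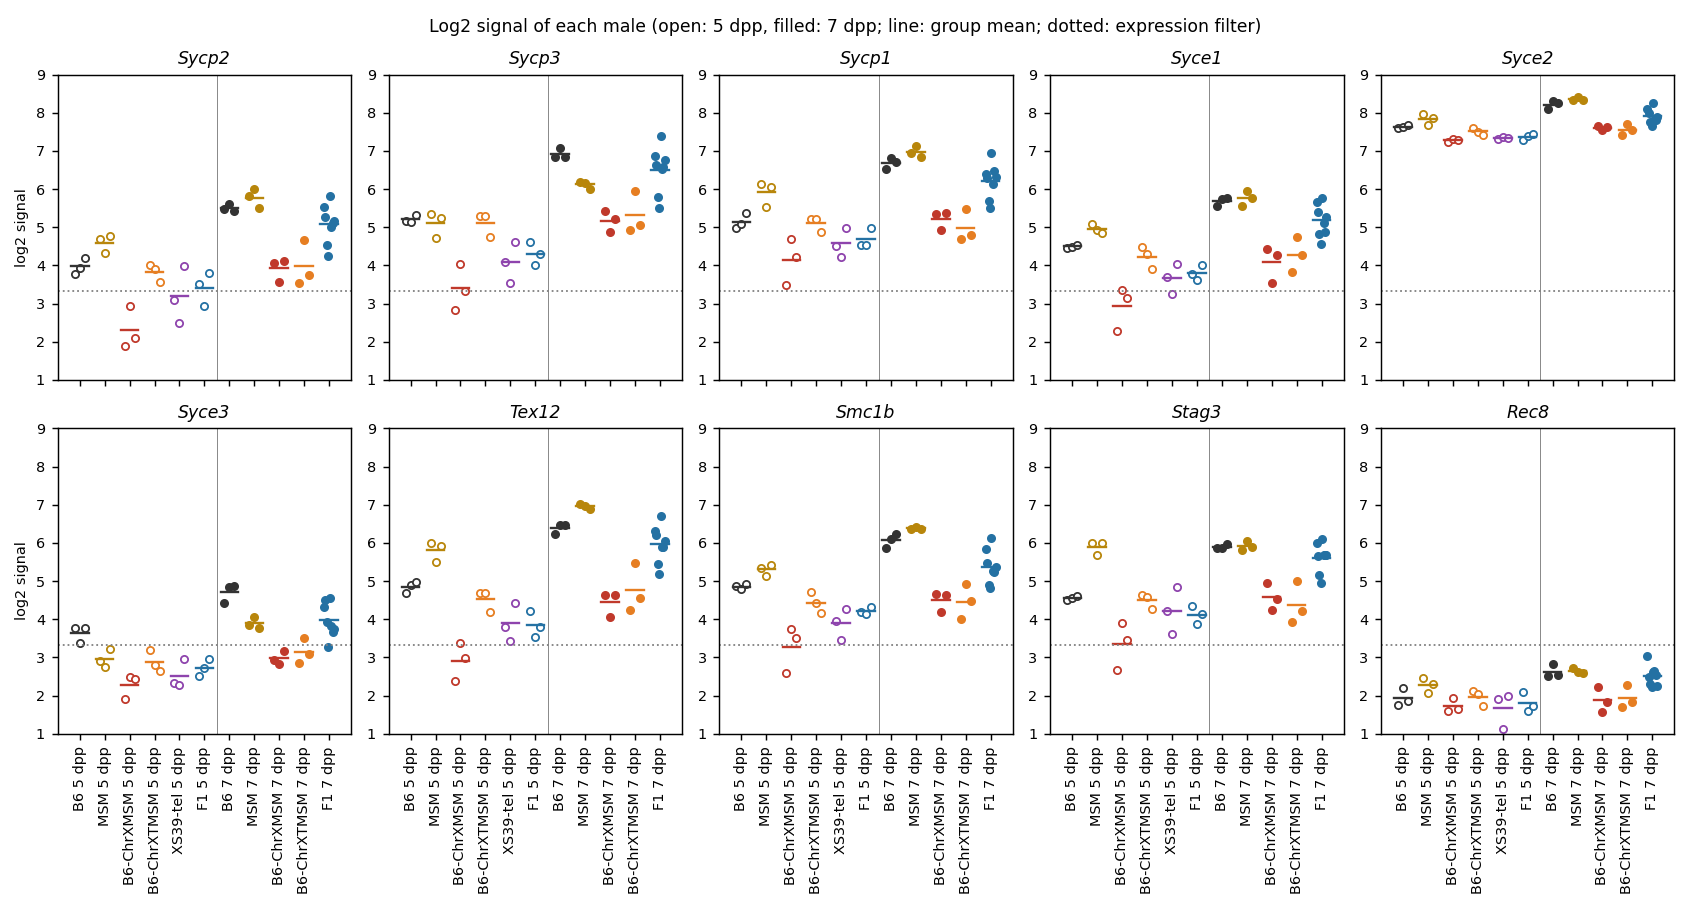
Log2 signal of the 10 genes in each of the 38 males (vertical axis, 1 panel per gene) by group (horizontal axis); open points are males at 5 dpp, filled points males at 7 dpp, horizontal lines group means and the dotted line the filter at 3.322. B6 lay higher at 7 than at 5 dpp for the 9 genes above the filter, while B6-ChrXTMSM at 7 dpp overlapped its own 5 dpp males.

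The axial element genes were lower than in B6 in B6-ChrXMSM at both ages and in B6-ChrXTMSM at 7 dpp. Sycp3 read 5.17, 5.14 and 5.32 in the B6 males at 5 dpp, 2.83, 4.02 and 3.34 in B6-ChrXMSM and 5.29, 5.28 and 4.75 in B6-ChrXTMSM. All B6-ChrXMSM males were below all B6 males, and B6-ChrXTMSM overlapped B6. Sycp3 fell by 1.81 (SE 0.26) on the log2 scale in B6-ChrXMSM against B6 (limma, adjusted p = 0.014), and its difference in B6-ChrXTMSM was -0.10 (95% confidence interval -0.45 to 0.24). At 7 dpp, Sycp3 read 6.83, 7.06 and 6.84 in B6, 5.41, 4.88 and 5.21 in B6-ChrXMSM and 4.92, 5.95 and 5.07 in B6-ChrXTMSM. Both substitution strains were then below B6 without overlap and overlapped each other. The fall was 3.36-fold in B6-ChrXMSM (limma, adjusted p = 5.16e-05) and 3.03-fold in B6-ChrXTMSM (limma, adjusted p = 0.00168). Sycp2, the partner of SYCP3 in the axis, fell by 1.67 (SE 0.26) in B6-ChrXMSM at 5 dpp, to a mean under the filter, by 1.58 (SE 0.14) at 7 dpp and by 1.52 (SE 0.25) in B6-ChrXTMSM at 7 dpp. Its males at 5 dpp read 3.79, 3.93 and 4.20 in B6, 1.88, 2.93 and 2.09 in B6-ChrXMSM, and 4.02, 3.90 and 3.57 in B6-ChrXTMSM. Here too B6 overlapped B6-ChrXTMSM and not B6-ChrXMSM. At 7 dpp Sycp2 read 5.48, 5.60 and 5.43 in B6, 4.06, 3.57 and 4.13 in B6-ChrXMSM and 3.54, 4.68 and 3.74 in B6-ChrXTMSM, and both strains lay below all B6 males.

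Sycp1, the transverse filament gene, was called lower in these strains at 7 dpp only. At 5 dpp it read 4.97, 5.09 and 5.38 in B6, 3.50, 4.70 and 4.22 in B6-ChrXMSM, and 5.21, 5.22 and 4.87 in B6-ChrXTMSM. The B6-ChrXMSM males were all below B6, but the difference of -1.01 (95% confidence interval -1.65 to -0.37) missed the threshold (limma, adjusted p = 0.0831). At 7 dpp, Sycp1 read 6.51, 6.81 and 6.70 in B6, 5.34, 4.94 and 5.36 in B6-ChrXMSM, and 4.70, 5.49 and 4.79 in B6-ChrXTMSM. Neither strain overlapped B6. Sycp1 then fell 2.76-fold in B6-ChrXMSM (limma, adjusted p = 9.09e-05) and 3.21-fold in B6-ChrXTMSM (limma, adjusted p = 0.000643), where it had the largest log2 fold change of the 9 genes.

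The central element genes followed with unequal sizes. Tex12, whose product pairs with SYCE2, read 4.68, 4.90 and 4.97 in B6 at 5 dpp, 2.39, 3.37 and 2.98 in B6-ChrXMSM and 4.69, 4.69 and 4.20 in B6-ChrXTMSM. At 7 dpp it read 6.25, 6.48 and 6.48 in B6, 4.64, 4.07 and 4.62 in B6-ChrXMSM and 4.24, 5.46 and 4.56 in B6-ChrXTMSM. The B6-ChrXMSM males were the lower ones without overlap at both ages, and the B6-ChrXTMSM males at 7 dpp only. Tex12 fell 3.83-fold in B6-ChrXMSM at 5 dpp, to a mean under the filter (limma, adjusted p = 0.00664), 3.89-fold at 7 dpp (limma, adjusted p = 5.94e-05) and 3.13-fold in B6-ChrXTMSM at 7 dpp (limma, adjusted p = 0.00239). Syce1, the scaffold that binds SYCE3 and SYCP1, fell by 1.57 (SE 0.25) in B6-ChrXMSM at 5 dpp, to a mean under the filter, by 1.61 (SE 0.20) at 7 dpp and by 1.41 (SE 0.20) in B6-ChrXTMSM at 7 dpp. Its males at 5 dpp ranged from 4.47 to 4.53 in B6 and from 2.27 to 3.34 in B6-ChrXMSM, and at 7 dpp from 5.56 to 5.76 in B6, from 3.54 to 4.43 in B6-ChrXMSM and from 3.82 to 4.74 in B6-ChrXTMSM. The ranges of the substitution strains were clear of B6 in each case. Syce3, a small protein that links SYCP1 to the other central element proteins, was near the filter. It read 3.77, 3.38 and 3.77 in B6 at 5 dpp, 1.91, 2.49 and 2.43 in B6-ChrXMSM, and 3.19, 2.79 and 2.65 in B6-ChrXTMSM. Syce3 was lower than B6 without overlap in B6-ChrXTMSM at 5 dpp as well, by -0.76 (95% confidence interval -1.14 to -0.38), although the call was not reached (limma, adjusted p = 0.0928). Syce3 fell 2.58-fold in B6-ChrXMSM at 5 dpp (limma, adjusted p = 0.00853), and 3.33-fold and 2.95-fold in B6-ChrXMSM and B6-ChrXTMSM at 7 dpp, each time to a mean under the filter.

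Syce2 had the smallest changes of the 9 genes in every comparison of a substitution strain with B6 but B6-ChrXTMSM at 5 dpp. Its 38 males lay between 7.23 and 8.41, far above the filter. It read 7.61, 7.62 and 7.68 in B6 at 5 dpp and 7.23, 7.32 and 7.28 in B6-ChrXMSM. The groups did not overlap, and the difference of -0.36 (limma, adjusted p = 0.0164) was under 1.5-fold. At 7 dpp, Syce2 read 8.09, 8.31 and 8.24 in B6, 7.65, 7.54 and 7.62 in B6-ChrXMSM and 7.41, 7.70 and 7.54 in B6-ChrXTMSM. It fell 1.52-fold in B6-ChrXMSM (limma, adjusted p = 0.000465) and 1.58-fold in B6-ChrXTMSM (limma, adjusted p = 0.0012). The call in B6-ChrXMSM was lost when B6 replicate 2 or B6-ChrXMSM replicate 2 was left out, or when array medians were subtracted, where it came under 1.5-fold.

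The meiotic cohesin genes Smc1b and Stag3 moved with the complex. Smc1b read 4.86, 4.80 and 4.91 in B6 at 5 dpp, 2.60, 3.75 and 3.50 in B6-ChrXMSM and 4.72, 4.42 and 4.17 in B6-ChrXTMSM. At 7 dpp it read 5.85, 6.09 and 6.24 in B6, 4.67, 4.20 and 4.63 in B6-ChrXMSM and 3.99, 4.92 and 4.48 in B6-ChrXTMSM. Both substitution strains were below B6 at both ages without overlap. Smc1b fell 2.98-fold in B6-ChrXMSM at 5 dpp, to a mean under the filter (limma, adjusted p = 0.0217), and 2.96-fold and 3.03-fold in B6-ChrXMSM and B6-ChrXTMSM at 7 dpp. The difference of B6-ChrXTMSM at 5 dpp, -0.42 (95% confidence interval -0.72 to -0.12), was not called (limma, adjusted p = 0.154). Stag3 read 4.50, 4.56 and 4.61 in B6 at 5 dpp, 2.68, 3.89 and 3.45 in B6-ChrXMSM, and 4.63, 4.57 and 4.28 in B6-ChrXTMSM. Only B6-ChrXMSM was clear of B6. Stag3 fell by 1.22 (SE 0.26) in B6-ChrXMSM at 5 dpp (limma, adjusted p = 0.0449), by 1.33 (SE 0.15) at 7 dpp and by 1.52 (SE 0.23) in B6-ChrXTMSM at 7 dpp. At 7 dpp Stag3 read 5.87, 5.86 and 5.98 in B6, 4.95, 4.25 and 4.53 in B6-ChrXMSM and 3.92, 5.00 and 4.21 in B6-ChrXTMSM, again without overlap with B6. Rec8, the kleisin of meiotic cohesin, read 2.51, 2.83 and 2.54 in B6 at 7 dpp, 2.22, 1.57 and 1.84 in B6-ChrXMSM and 1.71, 2.27 and 1.84 in B6-ChrXTMSM. Both strains were below B6, in a range of signal where the array has little resolution. Without the filter, Rec8 was called lower in both strains at 7 dpp.

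Over all members, 7 of the 9 genes tested were called lower in B6-ChrXMSM at 5 dpp, where 1.49% of all probe sets were, and 9 of 9 had no overlap with B6, as had 17.3% of all probe sets on the lower side. Of the 7, Sycp2, Syce1, Syce3, Tex12 and Smc1b passed the filter only through B6, the group where they are high, so the count is a description and no support. The 7 calls rest on few males: 2 calls (Syce3 and Tex12) were left without B6 replicate 1, 2 or 3, and 3 without B6-ChrXMSM replicate 3. In B6-ChrXTMSM at 5 dpp, 0 of 9 were called (0.224% of all probe sets were called lower and 0.0767% higher), 2 had an unadjusted p under 0.05 (limma) and 3 did not overlap B6, against 13.1% of all probe sets. At 7 dpp, 9 of 9 were called lower in B6-ChrXMSM, where 4.61% of all probe sets were, and 9 of 9 in B6-ChrXTMSM, where 4.49% were. None of the 9 overlapped B6 in either strain, against 26.6% and 26.4% of all probe sets that were lower without overlap. The median log2 fold change of the members was -1.57 in B6-ChrXMSM at 5 dpp, -0.14 in B6-ChrXTMSM at 5 dpp, -1.58 in B6-ChrXMSM at 7 dpp and -1.56 in B6-ChrXTMSM at 7 dpp. The medians of all probe sets tested were between -0.01 and 0.02 in these comparisons, which share the B6 males of their age. Set directly against each other at 5 dpp, B6-ChrXTMSM was higher than B6-ChrXMSM in 8 of 8 genes tested, without overlap, as were 14.8% of all probe sets. Of these 8, Sycp2, Syce1, Tex12 and Smc1b passed the filter only through B6-ChrXTMSM, where they are higher. Sycp2 (1.53), Sycp3 (1.71) and Tex12 (1.62) were called, Sycp2 and Tex12 from a mean under the filter in B6-ChrXMSM, against 0.496% of all probe sets. Both counts are therefore a description and no support. These calls were all lost without B6-ChrXMSM replicate 1 or 3 or without any 1 of the B6-ChrXTMSM males. At 7 dpp the differences of the same 8 genes ran from -0.22 to 0.31, with 0 called (0.178% of all probe sets were lower and 0.131% higher), 0 at an unadjusted p under 0.05 (limma) and 95% confidence intervals within -0.82 and 0.98.

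**Figure D2:**
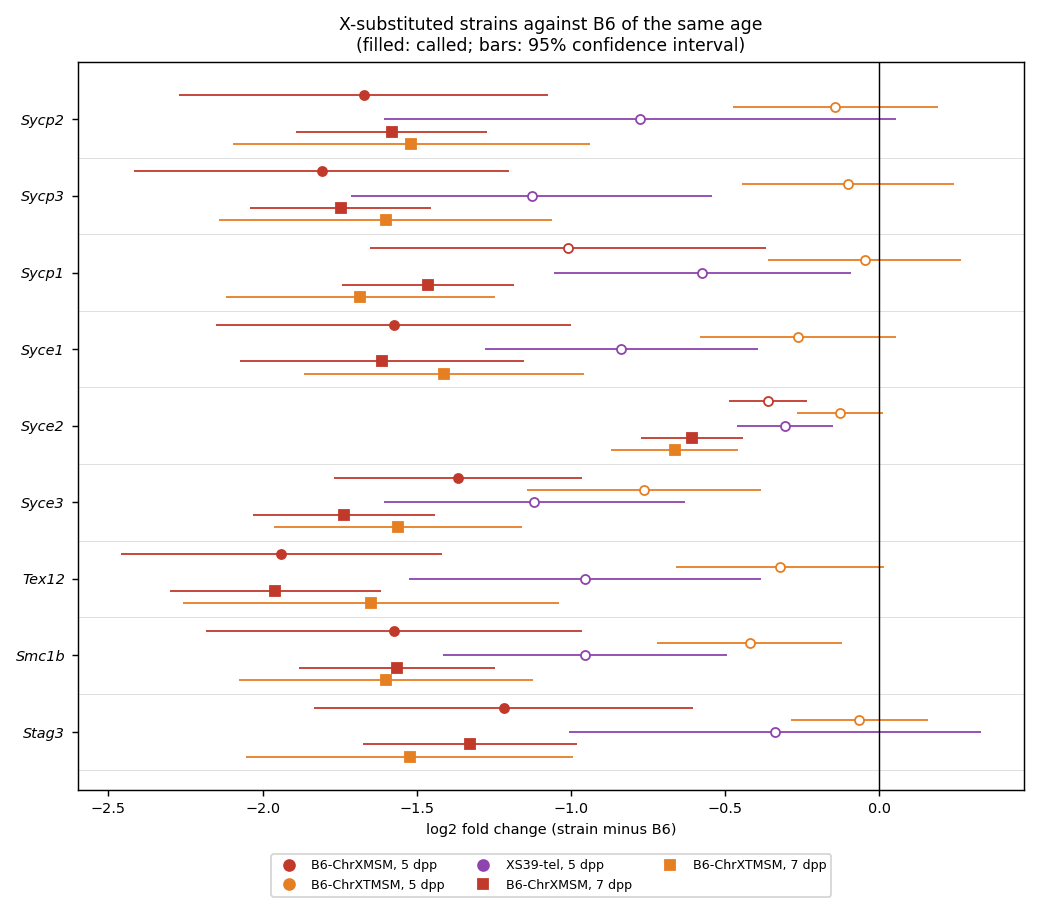
Log2 fold change against B6 of the same age (horizontal axis) of the 9 genes above the filter (vertical axis) in B6-ChrXMSM, B6-ChrXTMSM and XS39-tel; circles are 5 dpp, squares 7 dpp, bars 95% confidence intervals and filled symbols called changes. At 7 dpp both strains lay left of 0 for all 9 genes, while at 5 dpp the B6-ChrXTMSM differences ran from -0.76 to -0.05.

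XS39-tel at 5 dpp had a median difference from B6 that lay between those of B6-ChrXMSM and B6-ChrXTMSM, and was not tested against B6-ChrXMSM. Sycp3 read 4.08, 3.55 and 4.61 and Tex12 3.81, 3.44 and 4.43 in its 3 males, all below the B6 males of that age. Stag3 read 4.21, 3.61 and 4.85 and overlapped B6. All 9 differences from B6 were negative, from -1.13 (Sycp3) to -0.31 (Syce2), with a median of -0.84 and 6 without overlap, against 15.8% of all probe sets. The test called 0 of 9, where 0.544% of all probe sets were called lower and 0.105% higher, and 7 had an unadjusted p under 0.05 (limma). The third male was the highest of the 3 for 8 of the 9 genes, and without it 7 genes were called. That male stood out by the levels of these same genes, so the 7 calls are a description and no support. The 8 genes tested were also lower than in B6-ChrXTMSM, from -1.03 to -0.18, with 4 at an unadjusted p under 0.05 (limma). With all males, 0 of the 8 were called, where 0.00586% of all probe sets were called lower and 0.0234% higher. Without XS39-tel replicate 3, 4 of the 8 were called. That count was not set against the share of all probe sets in the same fit, so it is a description and no support.

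From 5 to 7 dpp, most of the genes rose in B6, in B6-ChrXMSM and in the F1, and none was called in B6-ChrXTMSM. In B6, 8 of 9 were called higher at 7 dpp (4.16% of all probe sets were), and Syce2 differed by 0.58 (SE 0.07), under 1.5-fold. The largest rise was that of Sycp3, 1.71 (SE 0.08, limma, adjusted p = 2.22e-05), and the smallest called one that of Syce3, 1.07 (SE 0.15). In B6-ChrXMSM, which began lower, 6 of 8 genes tested were called higher (1.33% of all probe sets were), with Sycp3 at 1.77 and Sycp2 at 1.62, and 8 of 8 did not overlap between the ages, against 18.8% of all probe sets. Of these 8, Sycp2, Syce1, Tex12 and Smc1b passed the filter only through the 7 dpp males, where they are high. Both counts are therefore a description and no support. The count of calls also rests on few males: it was 2 without the 7 dpp replicate 1, and 3 without the 5 dpp or the 7 dpp replicate 3. In B6-ChrXTMSM, 0 of 8 were called (0.567% of all probe sets were lower and 0.272% higher), with 0 at an unadjusted p under 0.05 (limma). The ages overlapped for all 8, while 21.2% of all probe sets were higher at 7 dpp without overlap. The differences ran from -0.11 (Stag3) to 0.23 (Tex12), with intervals such as -0.43 to 0.84 for Sycp3, and the upper limit was below the change of B6 for all 8. At 7 dpp this strain lay below B6 of that age while overlapping its own levels at 5 dpp. The median change was 1.34 in B6, 1.23 in B6-ChrXMSM and 0.04 in B6-ChrXTMSM, against 0.02, 0.02 and 0.03 over all probe sets tested.

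The difference between these changes was tested as a strain by age term. For B6-ChrXTMSM and B6 it was negative for 9 of 9 genes, and 7 were called, where 3.04% of all probe sets were on the lower side. Sycp1 had the most negative term, -1.64 (SE 0.27, limma, adjusted p = 0.00265), followed by Sycp3 at -1.50 (SE 0.32, limma, adjusted p = 0.00831) and Stag3 at -1.46 (SE 0.29, limma, adjusted p = 0.00633). Sycp2 (-1.37), Tex12 (-1.33), Smc1b (-1.18) and Syce1 (-1.15) were also called. Syce2 was at -0.54, under 1.5-fold, and Syce3 at -0.80 missed the threshold (limma, adjusted p = 0.0533). Without B6 5 dpp replicate 1 or B6-ChrXTMSM 7 dpp replicate 3, Tex12 lost its call, and with 1 fit over all 38 arrays only Sycp1 and Stag3 kept theirs. For B6-ChrXMSM and B6, the terms ran from -0.45 to 0.09, 0 of 9 were called (0.692% of all probe sets were lower and 0.71% higher) and 1 had an unadjusted p under 0.05 (limma). The strains B6-ChrXTMSM and B6-ChrXMSM were set against each other in the same way after their values had been seen. Those terms were negative for 8 of 8 genes, from -1.56 (Sycp3) to -0.29 (Syce2), and had an unadjusted p under 0.05 for 8 of 8, but 0 were called at adjusted p values between 0.32 and 0.483 (limma), where 0% of all probe sets were called lower and 0.00582% higher.

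**Figure D3:**
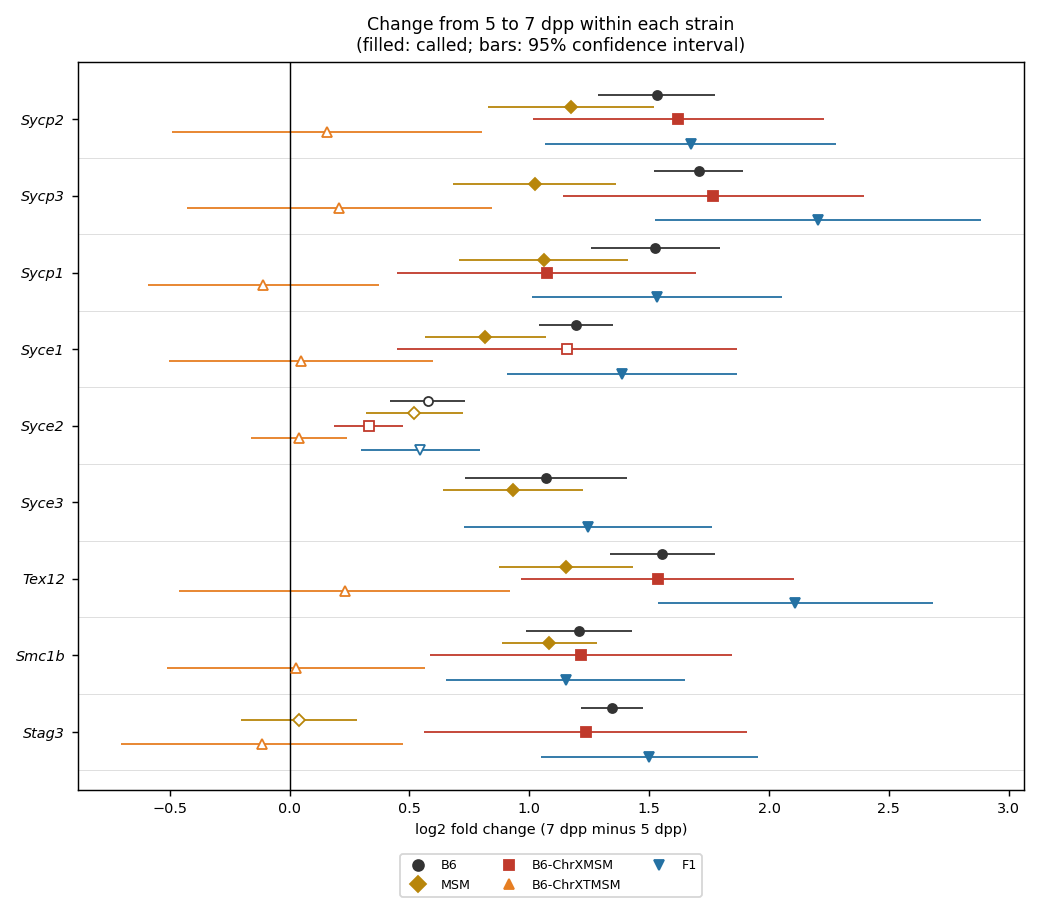
Log2 fold change from 5 to 7 dpp (horizontal axis) of the 9 genes above the filter (vertical axis) in B6, MSM, B6-ChrXMSM, B6-ChrXTMSM and the F1; bars are 95% confidence intervals and filled symbols called changes. Only the B6-ChrXTMSM intervals included 0 for all 8 genes tested, and the F1 had the largest change for Sycp3, 2.20.

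The F1 males carried the same distal MSM X as B6-ChrXTMSM, together with MSM sequence on 1 copy of chromosome 1. No group carried chromosome 1 of MSM without X sequence of MSM. An effect of chromosome 1 alone and a changed effect of the X therefore cannot be told apart. At 5 dpp the F1 males were lower than B6 for all 9 genes, from -0.99 (Tex12) to -0.27 (Syce2). Sycp3 read at most 4.62 in the F1 males and at least 5.14 in B6, without overlap, and its difference of -0.91 was not called (limma, adjusted p = 0.0639). Smc1b read 4.19, 4.15 and 4.33 against 4.86, 4.80 and 4.91 in B6, without overlap. Smc1b fell by 0.63 (SE 0.07, limma, adjusted p = 0.0195) and Syce1 by 0.70 (SE 0.10, limma, adjusted p = 0.0442), and these 2 of 9 were called, where 0.388% of all probe sets were. Neither call remained without B6 replicate 1, 2 or 3 or without F1 replicate 2. Between the F1 and B6-ChrXTMSM at 5 dpp, 0 of 8 genes were called (0.012% of all probe sets were lower and 0.0361% higher), 5 had an unadjusted p under 0.05 (limma), and the differences ran from -0.80 to -0.15.

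At 7 dpp the F1 means were above those of B6-ChrXTMSM for 9 of 9 genes. Over the 8 F1 males, Sycp3 ran from 5.50 to 7.39 with a median of 6.60, against 4.92, 5.95 and 5.07 in B6-ChrXTMSM. Stag3 ran from 4.96 to 6.09 with a median of 5.68, against 3.92, 5.00 and 4.21. Sycp1 ran from 5.51 to 6.94 with a median of 6.30, against 4.70, 5.49 and 4.79. The lowest F1 male was above all B6-ChrXTMSM males for Sycp1 only, among the 9 genes (3.87% of all probe sets were higher without overlap). Stag3 rose by 1.24 (SE 0.25, limma, adjusted p = 0.0456) and was the 1 gene of 9 called, where 0.144% of all probe sets were. Sycp1 was 1.23 higher (SE 0.26, limma, adjusted p = 0.0534), and 9 of 9 had an unadjusted p under 0.05, with a median of 1.10 against -0.00 over all probe sets. The count of calls turned on single males: it was 8 without F1 replicate 4, 4 without F1 replicate 3, and 0 without B6-ChrXTMSM replicate 1 or 3 or without any of F1 replicates 1, 2, 5, 6, 7 and 8. Against B6, 0 of 9 genes were called in the F1 at 7 dpp (1.36% of all probe sets were lower and 0.364% higher), 4 had an unadjusted p under 0.05 (limma), and the differences ran from -0.73 (Syce3) to -0.29 (Stag3). The interval for Sycp3 was -1.06 to 0.25, which does not show that the F1 was like B6. From 5 to 7 dpp, 8 of 9 genes were called higher in the F1 (2.96% of all probe sets were). Sycp3 rose 4.61-fold (limma, adjusted p = 0.003) and Tex12 4.31-fold (limma, adjusted p = 0.00268). Syce2 was higher by 0.54, under 1.5-fold. The strain by age terms of the F1 and B6 ran from -0.05 to 0.55, with 0 of 9 called, 0 at an unadjusted p under 0.05 (limma), and 0% of all probe sets called lower and 0.0116% higher.

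The F1 males at 7 dpp differed among themselves, with replicate 4 the lowest and replicate 5 the highest for 9 of 9 genes. On a scale where the B6-ChrXTMSM mean of a gene is 0% and the B6 mean 100%, the median over the 9 genes was 95.2% in replicate 1, 81.7% in replicate 2, 38.9% in replicate 3 and 20.7% in replicate 4. It was 112.6% in replicate 5, 66.5% in replicate 6, 68.6% in replicate 7 and 78.0% in replicate 8. Replicate 5 was at or above the lowest B6 male for 9 of 9 genes and replicate 1 for 6 of 9. At the other end, replicate 4 was at or below the highest B6-ChrXTMSM male for 8 of 9 and replicate 3 for 4 of 9. The remaining 4 males lay between, apart from 1 gene in replicate 2. Across the 8 males, the level of Sycp3 was related to that of Sycp2 with a Pearson r of 0.983 (exact permutation test, two-sided, adjusted p = 0.000781), to Stag3 with 0.981 and to Tex12 with 0.977. Of 9 relations with Sycp3, Rec8 included, r ran from 0.594 to 0.983 and Spearman's rho from 0.524 to 0.976, and 8 had an adjusted p under 0.05 for r (Benjamini-Hochberg over the 9). The weakest were Syce3 (r = 0.725, adjusted p = 0.0475, exact permutation test) and Rec8 (r = 0.594, adjusted p = 0.118, exact permutation test). Without replicates 3 and 4, the males farthest from the median of Sycp3, r was between 0.902 and 0.94 for Sycp2, Syce2, Tex12, Smc1b and Stag3 (exact permutation test, adjusted p = 0.03 for each). It was 0.907 for Sycp1 and 0.812 for Syce1, each with an adjusted p of 0.05 (exact permutation test over the 6 males left), so their coefficients stayed high while the p came to the threshold. For Syce3 it was 0.621 (exact permutation test, adjusted p = 0.159), and for Rec8 0.192. How many genes outside the set are related to Sycp3 in these males was not tested, so the relations are not shown to be particular to the members. The mean level of the germ cell markers described below also ran from 5.14 to 6.31 over these males. The same male being lowest for all 9 genes was also seen in B6-ChrXMSM at 5 dpp (replicate 1) and 7 dpp (replicate 2), and in B6-ChrXTMSM at 5 dpp (replicate 3) and 7 dpp (replicate 1).

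**Figure D4:**
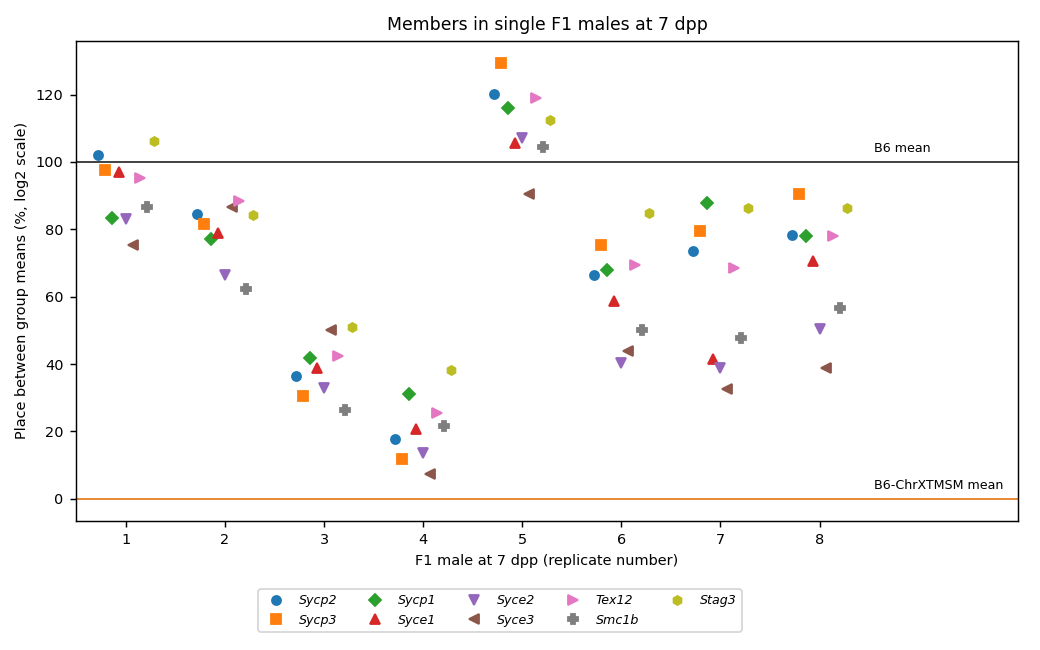
Place of each of the 9 genes in each F1 male at 7 dpp (horizontal axis, replicate number) on a scale where the B6-ChrXTMSM mean at 7 dpp is 0% and the B6 mean 100% (vertical axis, computed on log2 signal); each point is 1 gene. Replicates 3 and 4 lie nearest to B6-ChrXTMSM, with medians of 38.9% and 20.7%, and replicate 5 has a median of 112.6%.

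In MSM itself, the members did not move one way. At 5 dpp, Stag3 read 5.98, 5.68 and 6.00 against 4.50, 4.56 and 4.61 in B6 and rose 2.51-fold (limma, adjusted p = 1.25e-05). Tex12 read 5.99, 5.50 and 5.93 and rose 1.94-fold (limma, adjusted p = 0.00044). Sycp1 (0.77) and Sycp2 (0.62) were also called higher, so that 4 of 9 were, where 16.2% of all probe sets were. The call of Sycp2 was lost without B6 replicate 1 or without MSM replicate 1 or 3. Syce3 read 2.90, 2.74 and 3.23 against 3.77, 3.38 and 3.77 and fell by 0.68 (limma, adjusted p = 0.00407), the 1 gene called lower, where 12% of all probe sets were; it was not called without MSM replicate 2. At 7 dpp, Sycp3 read 6.19, 6.17 and 6.01 against 6.83, 7.06 and 6.84 and fell 1.73-fold (limma, adjusted p = 0.000107). Syce3 read 3.84, 4.06 and 3.78 against 4.43, 4.84 and 4.86 and fell 1.76-fold (limma, adjusted p = 0.000784). These were the 2 genes of 9 called lower at 7 dpp (7.93% of all probe sets were), and 0 of 9 were called higher (9.36% of all probe sets were). From 5 to 7 dpp, 7 of 9 genes were called higher in MSM (7.6% of all probe sets were). Syce2 was higher by 0.52, under 1.5-fold, and Stag3, already high at 5 dpp, changed by 0.04 (SE 0.11, limma, adjusted p = 0.782). The strain by age term of MSM and B6 was called for Stag3, -1.30 (limma, adjusted p = 4.24e-05), and Sycp3, -0.68 (limma, adjusted p = 0.0162), where 6.3% of all probe sets were called lower; that of Sycp3 was lost without MSM 5 dpp replicate 1. MSM males alone carry MSM alleles of these genes, and whether sequence differences under the probes contributed was not tested.

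Other genes of the pathway, on lists set up by function, were read beside the members. Of 22 other meiotic chromosome genes with a probe set (recombination, axis and telomere attachment factors), 8 were tested at 7 dpp. In B6-ChrXMSM 5 of the 8 were called lower (4.61% of all probe sets were), with a median of -0.82. In B6-ChrXTMSM 5 of 8 were (4.49% of all probe sets were), with a median of -0.94. In the latter they ran from Tex15 at -1.42, a gene of meiotic recombination, to Sgo2a at 0.38, a protector of centromeric cohesin. Of the 10 meiotic entry regulators, 7 were called lower in each strain at 7 dpp, beside the same 4.61% and 4.49% of all probe sets. Meioc, which with its partner YTHDC2 stabilises the meiotic programme, had the lowest values, -3.20 in B6-ChrXMSM and -3.17 in B6-ChrXTMSM. Stra8, the transcription factor induced by retinoic acid at meiotic entry, was the lowest of that list in B6-ChrXMSM at 5 dpp, at -1.96. There 4 of 8 tested were called lower (1.49% of all probe sets were), with a median of -0.75. In B6-ChrXTMSM from 5 to 7 dpp, 0 genes of either list were called (0.567% of all probe sets were lower and 0.272% higher), with medians of 0.04 and 0.04.

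Most of the general cohesin genes were not called. The 15 genes of this list, all tested, include the mitotic subunits and the loading and release factors, and their median was 0.01 in B6-ChrXMSM at 5 dpp, -0.05 at 7 dpp and -0.04 in B6-ChrXTMSM at 7 dpp. In these comparisons 1, 2 and 1 of the 15 were called lower and 0 higher. Of all probe sets, 1.49%, 4.61% and 4.49% were called lower, so the list was not called less often than these. Group means of the paralogs spanned 0.37 for Smc1a, 0.44 for Stag1, 0.55 for Stag2 and 0.23 for Rad21, side by side with 3.10 for Smc1b and 2.58 for Stag3. Stag2 was lowest in B6 and highest in B6-ChrXMSM, both at 7 dpp. Smc1a and Stag2 lie on the X chromosome. Among the 15, Wapl, which releases cohesin from chromatin, was the lowest in B6-ChrXMSM at 7 dpp (-0.83) and in B6-ChrXTMSM at 7 dpp (-0.66), and was called in both.

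Markers of germ cells moved with the members. Of 10 germ cell markers tested at 7 dpp, 10 were called lower in both B6-ChrXMSM and B6-ChrXTMSM, with medians of -1.38 and -1.29. Of all probe sets at 7 dpp, 4.61% were called lower and 1.47% higher in B6-ChrXMSM, and 4.49% lower and 1.23% higher in B6-ChrXTMSM. These shares stand beside every 7 dpp count of a marker list below. At 5 dpp, 8 of 9 germ cell markers were called lower in B6-ChrXMSM (1.49% of all probe sets were), with a median of -1.45. In B6-ChrXTMSM at 5 dpp, 0 of 9 were (0.224% of all probe sets were), with a median of -0.16. The mean log2 level of 11 germ cell markers ran from 6.02 to 6.11 over the B6 males at 7 dpp, 4.47 to 4.84 in B6-ChrXMSM, 4.49 to 5.27 in B6-ChrXTMSM and 5.14 to 6.31 in the F1. At 5 dpp it ran from 4.89 to 5.05 in B6, 3.10 to 4.04 in B6-ChrXMSM and 4.55 to 4.87 in B6-ChrXTMSM. From 5 to 7 dpp the germ cell median was 1.19 in B6, 1.25 in B6-ChrXMSM and 0.07 in B6-ChrXTMSM, side by side with 1.34, 1.23 and 0.04 for the members. Markers of differentiating spermatogonia gave 8 of 9 lower in each strain at 7 dpp, with medians of -1.40 and -1.23, and Ccnd2, a cyclin, was called higher in both, at 0.72 and 0.65. In the same comparisons, 3 of 9 markers of undifferentiated spermatogonia were called lower, with medians of -0.19 and -0.08. The mean level of 18 Sertoli cell markers, the somatic cells of the tubule, ran from 7.15 to 7.30 in B6 at 7 dpp, 7.40 to 7.46 in B6-ChrXMSM and 7.35 to 7.41 in B6-ChrXTMSM. Of these markers, 2 of 18 were called lower and 2 higher in B6-ChrXMSM, and 1 of 17 lower and 2 higher in B6-ChrXTMSM. Among Leydig cell markers, 0 of 5 were called in B6-ChrXMSM and 2 of 5 were called higher in B6-ChrXTMSM at 7 dpp. Peritubular myoid markers gave 1 of 7 lower in B6-ChrXMSM and 0 of 7 in B6-ChrXTMSM, and macrophage markers 1 of 6 higher and 0 of 6. Vascular endothelium (4 tested) and epididymis (1 tested) gave 0 calls in either strain at 7 dpp. Of 2 adipose markers tested at 7 dpp, Fabp4 was called higher and Dgat2 lower in both strains. The adipose markers also varied between males within groups, for example from 2.22 to 4.58 in mean level over the B6 males at 5 dpp, and the part of such tissue, or of germ cell number, in the member levels was not tested.

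**Figure D5:**
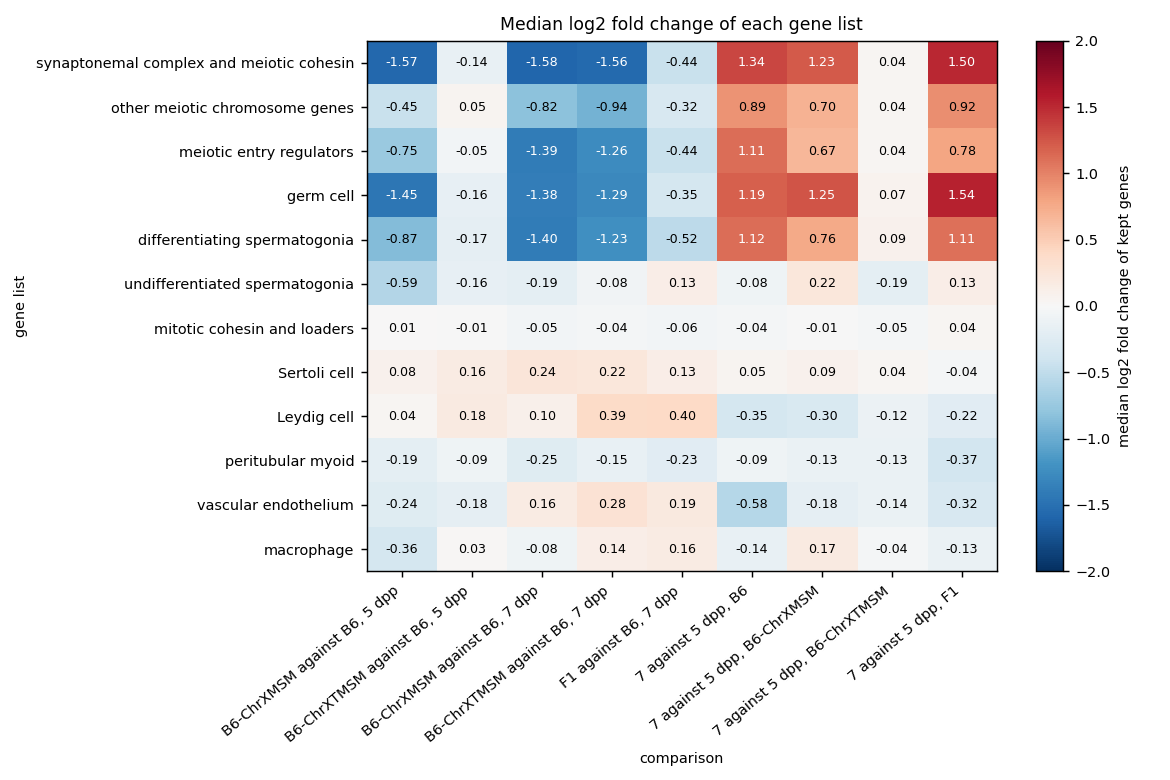
Median log2 fold change of the tested genes of each list (rows) in 9 comparisons (columns), with the value printed and coloured from -2 (blue) to 2 (red). The synaptonemal complex and meiotic cohesin row follows the rows of meiotic entry regulators, germ cells and differentiating spermatogonia in sign, with -1.56, -1.26, -1.29 and -1.23 in B6-ChrXTMSM against B6 at 7 dpp, while the mitotic cohesin row stays between -0.06 and 0.04 in all 9.

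As a description over the 38 males, the levels of the 9 members were related to each other with Pearson r from 0.79 (Syce3 with Stag3) to 0.98 (Syce1 with Smc1b), with a median of 0.94 over 36 pairs. With the group means removed, r ran from 0.61 (Syce2 with Stag3) to 0.97 (Sycp3 with Tex12), with a median of 0.85. Among 10634 other genes above the filter, those whose level was closest to the mean of the members were Piwil2 (r = 0.990), Tcfl5 (0.988), Dazl (0.984), Tktl1 (0.982), Mtmr7 (0.981), Pcgf5 (0.981), Ndrg4 (0.980), Taf7l (0.978), Pramel13 (0.978) and Gpat2 (0.978). Piwil2, which acts in piRNA biogenesis, and Dazl, an RNA-binding protein of germ cells, are expressed in germ cells of the neonatal testis. These 38 points share their strain and age groups, so the correlations carry the group differences.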

How the data were processed

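Total RNA of the testes of single males was hybridised to Affymetrix mouse genome arrays. The deposited values are log2 signals per probe set, which the authors normalised by RMA in GeneSpring GX, so arrays were compared without further scaling. Probe sets with 1 gene on an autosome or the X chromosome were used (34724 of 45101), and those the authors listed as polymorphic on the X, or for the F1 on chromosome 1, were left out. None of the 10 members was on that list. The signal filter, the fold threshold and the pairwise comparisons follow the methods of the study. Each comparison was fitted on its own groups with lmFit and eBayes (limma 3.58.1, R 4.3.3), with Benjamini-Hochberg adjustment over all probe sets above the filter, and the script was tested on simulated data. The p-values measure the spread between males, whose number limits the precision. The members and the gene lists were chosen with earlier results of these data known, and the strain by age term of B6-ChrXTMSM and B6-ChrXMSM was added after the values were seen. Named genes were all 10 members, paralogs of the cohesin members, the highest or lowest gene of a list and the 10 genes with the closest pattern over the arrays. Relations across the F1 males were tested with exact permutation tests (scipy 1.17.1), two-sided by the size of the coefficient. Gene places are those of RefSeq on GRCm38.p6, while the study placed genes on mm9. Alternatives were 1 fit over all arrays, no filter, a filter at a signal of 20, array medians subtracted, an intensity trend in eBayes, the adjusted p alone, the replicate number as a block, and each male left out.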

Additional observations from a re-analysis of the deposited data

Results flagged for a closer look

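The change from 5 to 7 dpp differed between strains, by the strain by age term (limma, adjusted p under 0.05 and at least 1.5-fold), for 9 gene and strain pairs. For B6-ChrXTMSM against B6, the term was -1.64 for Sycp1, -1.37 for Sycp2, -1.50 for Sycp3, -1.15 for Syce1, -1.33 for Tex12, -1.18 for Smc1b and -1.46 for Stag3 on the log2 scale. For MSM against B6, it was -0.68 for Sycp3 and -1.30 for Stag3. For Stag3 in MSM this goes with a level at 5 dpp (males at 5.98, 5.68 and 6.00) that was already as high as at 7 dpp (5.82, 6.05 and 5.90). Of all 9 genes tested in B6-ChrXTMSM, 0 were called lower than B6 at 5 dpp and 9 at 7 dpp. Of all probe sets, 0.224% and 4.49% were. The 7 genes were picked by their term in the same males, so their split between the ages is a description and no support. The germ cell marker list moved in the same comparisons, with a median change of 1.19 in B6 and 0.07 in B6-ChrXTMSM, and its part in these terms was not tested.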

How the results depend on the processing

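Of 76 member differences called, 51 kept their call under all alternatives run and 25 lost it under at least 1, and 0 of the 118 differences ever called changed sign. In B6-ChrXTMSM against B6 at 7 dpp, the 9 genes were called under all alternatives run, each male left out included. The number of genes called moved by over 1.5 times as follows, and the cause was not tested. With 1 fit over all arrays it was 4 in place of 0 for XS39-tel against B6, 0 in place of 2 for the F1 against B6 at 5 dpp, 1 in place of 2 for MSM against B6 at 7 dpp, 2 in place of 0 for the F1 against B6 at 7 dpp, 8 in place of 1 for the F1 against B6-ChrXTMSM at 7 dpp, 6 in place of 3 for B6-ChrXTMSM against B6-ChrXMSM at 5 dpp, 1 in place of 2 for the strain by age term of MSM, and 2 in place of 7 for that of B6-ChrXTMSM against B6. With an intensity trend it was 1 in place of 0 for B6-ChrXTMSM against B6 at 5 dpp, 4 for the F1 against B6 at 5 dpp, 2 for the F1 against B6-ChrXTMSM at 7 dpp and 6 for B6-ChrXTMSM against B6-ChrXMSM at 5 dpp. Without the filter it was 1 for the F1 against B6 at 5 dpp, 0 for B6-ChrXTMSM against B6-ChrXMSM at 5 dpp and 3 in place of 6 for 7 against 5 dpp in B6-ChrXMSM. By adjusted p alone it was 5 for MSM against B6 at 7 dpp. Of the relations to Sycp3 among F1 males, 5 in place of 8 had an adjusted p under 0.05 without the 2 males farthest from the median, where r was 0.907 for Sycp1 and 0.812 for Syce1, both at an adjusted p of 0.05 (exact permutation test), and 0.621 for Syce3.

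Leaving out 1 male gave 4 to 5 genes for MSM against B6 at 5 dpp, 2 to 8 for B6-ChrXMSM, 0 to 0 for B6-ChrXTMSM, 0 to 7 for XS39-tel and 0 to 3 for the F1 at 5 dpp. At 7 dpp against B6 it gave 2 to 3 for MSM, 8 to 9 for B6-ChrXMSM, 9 to 9 for B6-ChrXTMSM and 0 to 1 for the F1 (1 without F1 replicate 2 or 5). Between other strains it gave 0 to 8 for the F1 against B6-ChrXTMSM at 7 dpp, 0 to 4 for XS39-tel against B6-ChrXTMSM and 0 to 4 for B6-ChrXTMSM against B6-ChrXMSM at 5 dpp. With age it gave 2 to 7 for B6-ChrXMSM and 8 to 9 for B6, and for the strain by age terms 1 to 3 for MSM and 6 to 9 for B6-ChrXTMSM against B6.

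The replicate numbers of the labels were not taken to pair the males, because the males are separate animals. Same-numbered males of different groups had correlations of their deviations from -0.32 to 0.34 at 5 dpp and from -0.26 to 0.24 at 7 dpp. Above 0.1 were 15 of 45 and 12 of 30 such pairs, against 30 of 90 and 10 of 60 pairs of other numbers. At 7 dpp the median was 0.023 for the same number and -0.006 for other numbers, so this check does not exclude pairing. With the replicate number as a block, 0 genes were called for the F1 against B6 at 5 dpp, 0 for B6-ChrXTMSM against B6-ChrXMSM at 5 dpp and 3 for 7 against 5 dpp in B6-ChrXMSM, and no other count moved by over 1.5 times. Each member had 1 probe set, so the mean over its probe sets gave no other value. Low signal limits Rec8, which stayed under the filter, Syce3, whose mean was above it in 4 of 11 groups, and Sycp2, Syce1, Tex12 and Smc1b, whose means were under it in B6-ChrXMSM at 5 dpp (Sycp2 also in XS39-tel).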
